A study of Apis mellifera with 79 samples.

Results

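Each of 60 genes measured in the brains of single worker honey bees had a wide gap in expression between high and low bees, in foragers and in nurses alike. Bees on the same side of a gap did not always share a level. The 60 members were chosen by the values themselves: among the 11151 genes present in both tables of single apiary bees, the 30 bees of each caste were sorted on log2 CPM (reads of a gene scaled to the size of the library, on a log2 scale), the largest gap between neighbouring bees with 2 or more bees on each side was taken, and genes with a gap of at least 1 in both castes were ranked by the smaller of their gaps. A gap of at least 1 was found in 180 genes (1.614%) in foragers, in 208 genes (1.865%) in nurses and in 109 genes (0.977%) in both. The genes GB40548, GB40547, GB54226, GB48190 and GB43510, 5 in all, were left out by name, which left 107 genes, and the first 60 were kept. A bee above the gap is called high and a bee below it low. Gap sizes and state differences are therefore a description of the choice and were not tested. The gap rule used no label of colony, exposure or sequencing run. In contrast, the 5 genes were left out by name with earlier results of these data known, so the choice as a whole was not blind to them.

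The bees came from a study of clothianidin, a neonicotinoid insecticide, in Apis mellifera workers. In the apiary experiment, exposed colonies (C21, C23 and C28) received pollen patties with clothianidin at 4.9 ppb in the first week and at 2.0 ppb from week 5 on, and unexposed colonies (C25, C26 and C27) received patties without it. On day 30, 5 foragers, which were returning with pollen loads, and 5 nurses, which had their heads in cells with larvae, were taken from each of the 6 colonies, and each brain gave 1 library, so that a caste held 15 exposed and 15 unexposed bees. In the field study, whose libraries the choice did not use, each library was a pool of 5 brains: 5 exposed and 5 unexposed forager pools, and 5 exposed and 4 unexposed nurse pools, with the exposed pools from a site near treated corn and the unexposed pools from a site far from it. All colonies of the apiary experiment stood in a single apiary, and exposure was given to colonies, so a difference between exposures is also a difference between 3 colonies and 3 others.

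A honey bee colony is a family. Its workers are daughters of a single queen that mated with many drones, so the workers of a colony are either full sisters or sisters through the queen alone, and bees of different colonies are usually less related. Nurses are the younger workers that feed the larvae, and foragers are the older workers that collect pollen and nectar, and the change from nursing to foraging is accompanied by broad changes in brain expression. Clothianidin binds the nicotinic acetylcholine receptors of insect neurons. The hypopharyngeal gland, a head gland that makes larval food in nurses and sugar-processing enzymes in foragers, lies against the brain and was removed in the dissections, as were the ocelli.

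Genes carry the identifiers of an older honey bee gene set. None of the 11525 identifiers in the tables matched the reference gene table used here, so members are given by identifier, and gene lists and markers of other tissues, planned by words in gene names, could not be examined. For 2 members a name was inferred by matching the study's gene lists to its text, and neither name was checked against an annotation: GB49854 may be an alpha-amylase (LOC406114), an enzyme that breaks down starch, and GB40899 (LOC409360) may be a protein with a fatty acid hydroxylase domain. No sequences are shown because none were at hand for these identifiers.

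The apiary libraries held between 10457574 and 45089031 reads in genes and the field libraries between 17262001 and 36197175. A value at the floor of a table, -3.75 log2 CPM in foragers and -3.76 in nurses, stood for 0 reads. The nurse C23-N1 had the fewest reads. Libraries were sequenced in separate runs: 7 of 15 exposed foragers and 6 of 15 exposed nurses, against none of the 15 unexposed foragers and 1 of 15 unexposed nurses, were in the first run. Colony C28 gave 4 of its 5 foragers and all 5 of its nurses to the first run, so in nurses colony C28 and the first run can be told apart only through the 2 other first-run nurses. Sequencing lanes also largely followed colonies. All C21 foragers were in lane 3, all C25 foragers in lane 5 and all C26 nurses in lane 7. Lane was not a term in any test, so differences between colonies cannot be fully told apart from differences between lanes.

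The members were low-expressed genes on average, and their spread was large. The median member had a mean of 0.22 log2 CPM in foragers and 0.11 in nurses, against medians of 5.02 and 5.12 over all genes of the tables, and 57 and 55 members lay below the median gene. The SD over bees had a median of 2.00 log2 CPM in foragers and 1.99 in nurses for the members, against 0.22 and 0.23 for all genes. The largest gap of a gene had a median of 0.116 in foragers and 0.123 in nurses over all genes. Among the members it ran between 1.59 and 7.06 in foragers, with a median of 2.47, and between 1.61 and 7.34 in nurses, with a median of 2.54. The last members kept were GB51815 and GB40899, with smaller gaps of 1.60 and 1.59, and the first genes left out were GB43324 and GB42343, with smaller gaps of 1.57 each, so the border of the set is a step in a continuous ranking.

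The median of the high bees exceeded the median of the low bees by between 2.57 and 9.41 log2 CPM in foragers (median over members 4.75) and by between 2.72 and 11.0 in nurses (median 4.95). Where low bees sit at the floor the difference depends on the constant added before the log was taken, so reads are given beside it. In 32 members no low bee of either caste had more than 10 reads, and in 16 none had more than 3. In 15 members the high bees reached 1000 reads in both castes. In contrast, 12 members had a low bee with over 100 reads, though in GB45797 and GB47546 other low bees were at 0 reads.

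GB49219 had the widest gap. Its 8 high foragers held between 2587 and 10484 reads, with a median of 3491, and its 22 low foragers at most 20 reads. Its 6 high nurses held between 3275 and 7070 reads, and its 24 low nurses at most 19. The lowest, median and highest levels were -3.75, -2.23 and 8.07 log2 CPM in exposed foragers, against -3.12, -1.77 and 6.94 in unexposed foragers. In nurses they were -3.76, -1.18 and 7.89 log2 CPM in exposed bees, against -3.76, -1.95 and 7.20 in unexposed bees. High foragers were found in C23 (3 bees), C28 (2), C25 (1) and C26 (2) and high nurses in C28 (4), C23 (1) and C26 (1), always beside low bees of the same colony and caste, and no bee of C21 or C27 was high.

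Other leading members differed in how many bees were high. GB52667 was at 0 reads in 16 of its 26 low foragers and 17 of its 25 low nurses, at most 3 reads in any low bee, and at between 118 and 634 reads in its 4 high foragers and between 218 and 456 reads in its 5 high nurses. GB46276 was high in most bees, with at least 2280 reads in its 22 high foragers and at least 4149 reads in its 20 high nurses, while no low bee exceeded 147 reads. GB45797 reached the highest level of the leading members: its 5 high nurses held between 12464 and 94109 reads, against at most 962 in the 25 low nurses, and its 3 high foragers between 2208 and 15076 reads, against at most 299 in the 27 low foragers. Low levels of GB45797 spread widely, between -3.76 and 4.75 log2 CPM in nurses, so its low bees did not share a level. The same held for some later members. Low nurses of GB51815 lay between -2.66 and 4.84 log2 CPM, and low foragers of GB47546 between -2.03 and 4.66. GB43036, GB53282 and GB41885 split clearly, at few reads. No low bee of these had more than 3 reads, and no high bee fewer than 27.

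**Figure D1:**
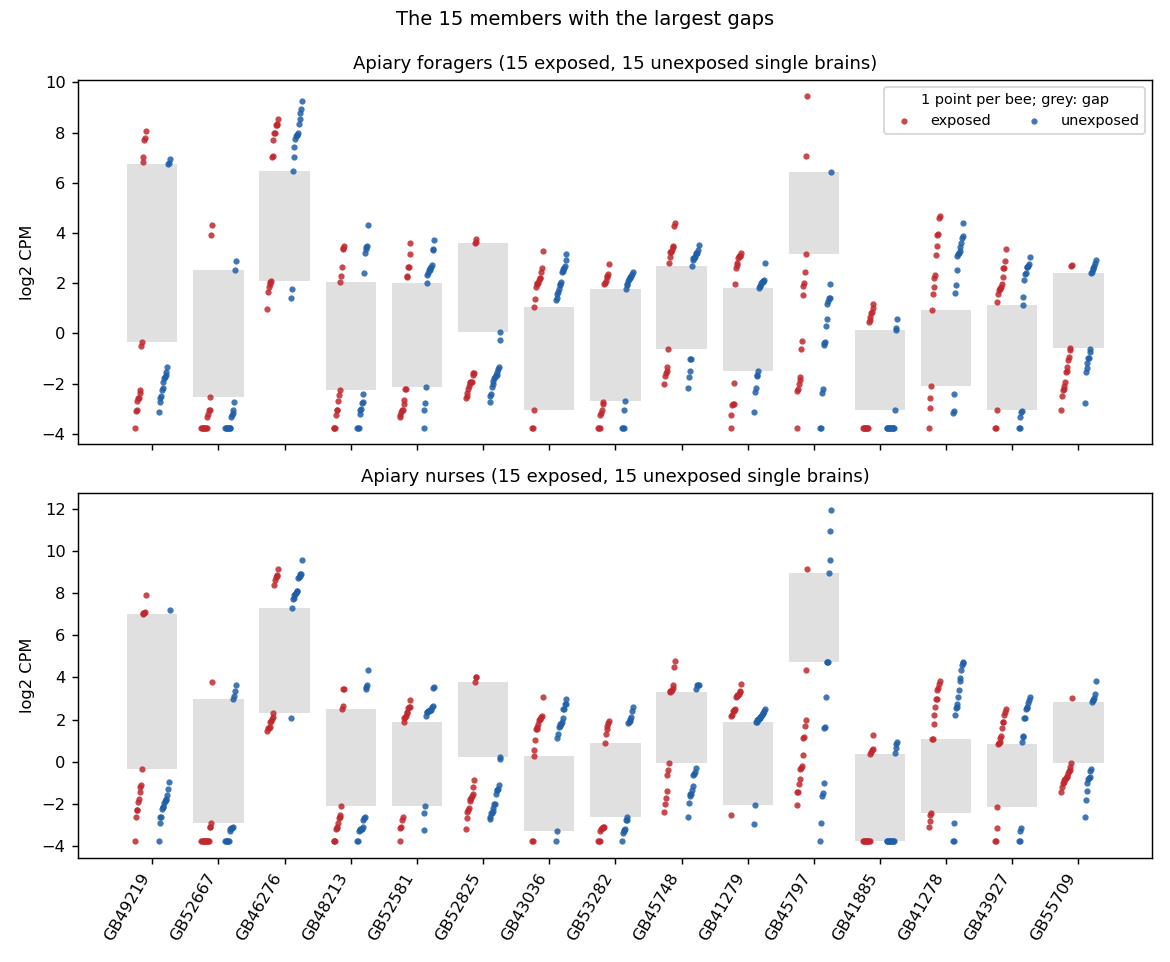
Log2 CPM (y axis) of the 15 members with the largest gaps (x axis), 1 point per bee, in the 30 apiary foragers (upper panel) and 30 apiary nurses (lower panel), exposed bees in red to the left of unexposed bees in blue, with the gap shaded grey. For GB49219 the shaded stretch is 7.06 log2 CPM high in foragers and 7.34 in nurses, and both exposures have bees above and below it, whereas bees above the gap of GB52825 are all exposed.

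The share of high bees was close in the castes, which came from different bees. In 44 of the 60 members the number of high bees among 30 differed by 3 or fewer between foragers and nurses, and in 14 members it was the same. The number of high bees ran between 3 and 28 in foragers and between 2 and 28 in nurses, with a median of 17 in each. Across the 60 members, which share the 60 libraries, it had a Pearson r of 0.81 and a Spearman rho of 0.78 between castes, as a description. In 23 members fewer than 15 bees were high in both castes, in 29 members more than 15 were high in both, and 8 members fell otherwise.

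The members GB49854, GB51815 and GB55204 were high in most bees of a caste and in few of the other. GB49854 was high in 21 foragers, with between 1117 and 34828 reads against at most 416 in low foragers, and in only 2 nurses, with 4470 and 6404 reads against at most 573 in low nurses. GB51815 was high in 20 foragers and 3 nurses, and GB55204 in 3 foragers and 28 nurses. For GB51815 and GB55204 the gap lay at different levels in the castes: GB55204 was called high from 9.06 log2 CPM in foragers and from 6.08 in nurses, and GB51815 from 1.83 in foragers and from 6.58 in nurses. The tables were normalized separately, so these levels are set side by side only. In 56 of the 60 members the gaps of both castes shared a range of log2 CPM. The exceptions were GB55204, GB51815, GB46236 and GB50313.

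**Figure D2:**
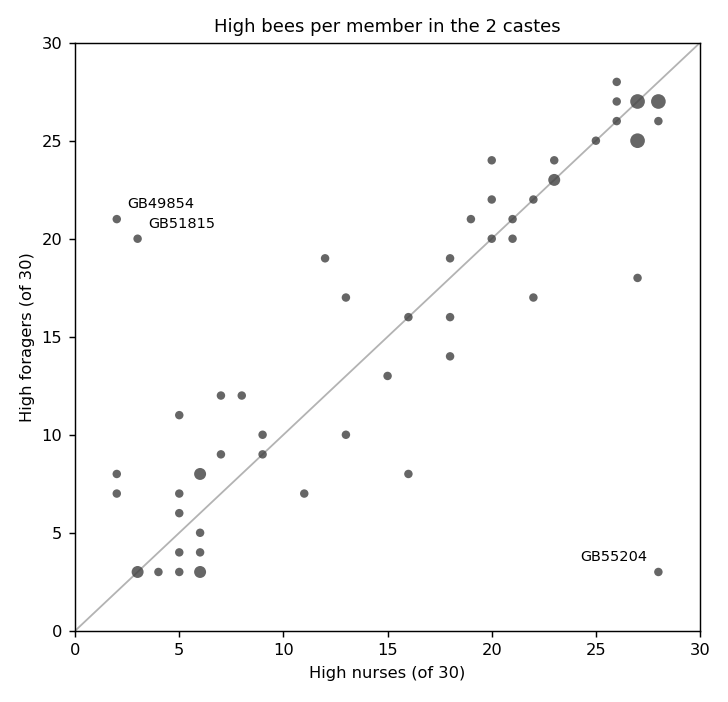
Number of high foragers (y axis, of 30) against number of high nurses (x axis, of 30) for the 60 members, with the area of a point standing for the number of members at that place and the line marking equal numbers. Most members lie near the line, and GB49854 (21 foragers, 2 nurses), GB51815 (20 and 3) and GB55204 (3 and 28) lie far from it.

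Colonies were mixed for most members. Counting each member in each colony, 360 combinations, 131 had both high and low bees in foragers and in nurses, 66 had all 10 bees high, 49 had none, and 6 had all 5 bees of a caste high with none of the other caste. Every member had high and low bees side by side in at least 1 colony and caste, and 42 members in at least 4 of the 6 colonies. The number of high bees in a colony, taken relative to the member's mean over colonies, had a Pearson r of 0.62 between foragers and nurses over the 360 combinations, a description in which the 12 groups of bees recur for every member. A colony rich in high foragers thus tended to be rich in high nurses for the same gene, although the bees were different. Castes of a colony also shared sequencing lanes in part, and a share of lane in this was not tested.

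**Figure D3:**
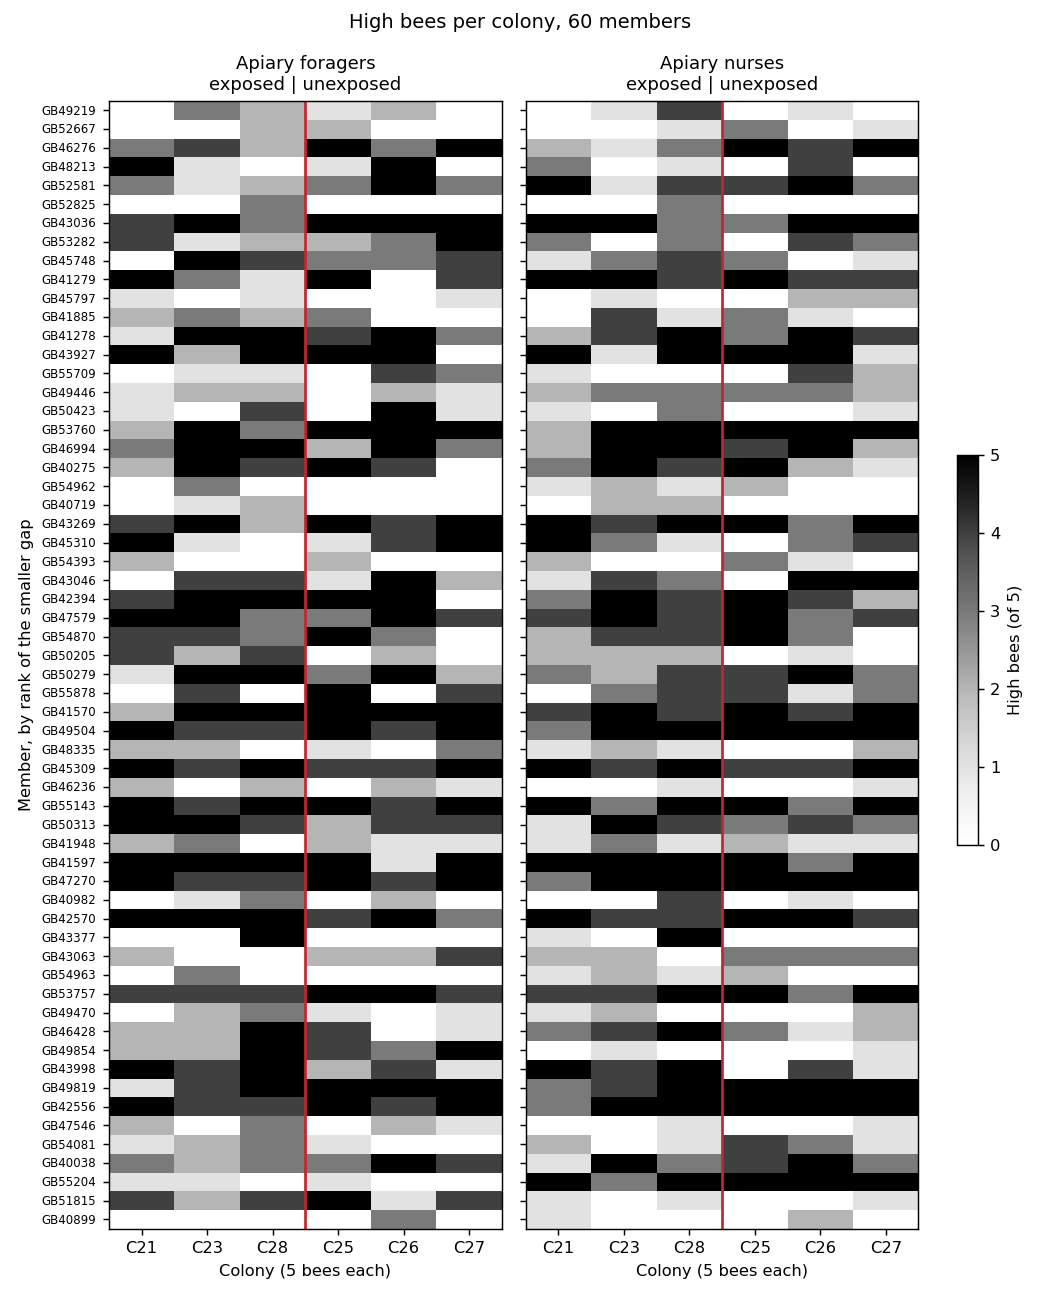
Number of high bees of 5 (grey scale, white 0 and black 5) for the 60 members (rows, by rank of the smaller gap) in each colony (columns), foragers on the left and nurses on the right, with exposed colonies left of the red line and unexposed colonies right of it. GB43377 is black in C28 in both castes, GB43927 is white in C27 foragers and pale in C27 nurses, and most rows hold grey cells, which are colonies with both states.

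In foragers the members were called by colony more often than all genes were. They were chosen for wide gaps in these same values, without colony labels, and were not compared with genes of equal level or spread. With limma on the deposited log2 CPM (an F test over the 6 colony means, adjusted p below 0.05 over all genes), 14 of 60 members (23.3%) were called, against 1.64% of the 11381 genes tested. Between colonies of the same exposure, 11 members (18.3%) were called, against 1.2% of genes. The calls were lost on a rank scale: with values replaced by normal scores of their ranks, none of the 60 members and none of the 11381 genes was called, and 27 members had an unadjusted p below 0.05. With the run as a term 9 members were called against 1.1% of genes, without colony C27 also 9 against 0.975%, and in the 23 second-run foragers alone 11 against 0.641%.

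In nurses colony differences were common throughout the table, and the members did not stand out. The same test called 22 of 60 members (36.7%) against 33.6% of the 11271 genes, and within exposures 24 members (40.0%) against 31.9% of genes. By limma-voom 13 members (21.7%) were called in each of these tests against 44.2% of genes, so the share of members was the lower one. With the run as a term 13 and 14 members were called against 23.6% and 25.1% of genes, and in the second run alone 14 and 15 against 26.4% and 28.6%. Without colony C25 there were 10 and 8 members against 12.9% and 7.98% of genes, without colony C26 there were 14 and 15 against 24.6% and 22.7%, and within exposures without C28 there were 15 against 29.5%. The members called in both castes numbered 9, 64.3% of the members called in foragers and 40.9% of those called in nurses. These members were GB48213, GB52825, GB43927, GB55709, GB40275, GB45310, GB41597, GB43377 and GB43998. Their overlap was not compared with the overlap over all genes. With 33.6% of all genes called in nurses, shared calls would arise in any set, so the overlap is not shown to be particular to the members.

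GB43377 was the member with the smallest adjusted p in foragers. It lay between 4.89 and 5.38 log2 CPM in the 5 C28 foragers, against 1.54 to 2.98 in the 25 other foragers. The 5 C28 nurses lay between 4.80 and 6.10 log2 CPM, and among the 25 other nurses a single bee, of C21, was high at 5.00. Within each caste the C28 bees were thus above every bee of the other 5 colonies but that nurse, which lay inside the C28 range. The second-run C28 forager was high as well, at 5.04 log2 CPM, and the 3 first-run foragers of other colonies were low, between 1.74 and 2.70. The adjusted p (limma) was 2.58e-10 in foragers and 2.82e-05 in nurses. Over the alternatives it ranged from 2.48e-12 to 0.265 in foragers and from 6.53e-08 to 0.11 in nurses. Without colony C28 it was not called in either caste (adjusted p 0.142 in foragers and 0.11 in nurses, limma), and in the second run alone, which holds 1 C28 forager and no C28 nurse, it was called in foragers (adjusted p 0.000698) and not in nurses (adjusted p 0.0803).

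GB43927 was low in C27 and in part of C23. All 5 C27 foragers were low, between -3.75 and -3.08 log2 CPM, as were 3 of the 5 C23 foragers, while all foragers of C21, C28, C25 and C26 were high, between 1.12 and 3.37. In nurses 4 of 5 C27 bees and 4 of 5 C23 bees were low and all 20 bees of the other colonies were high, so an exposed and an unexposed colony shared the low state. The adjusted p was 1.16e-05 in foragers and 2.82e-05 in nurses (limma).

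GB48213 showed the reverse layout, with high bees concentrated in C21 and C26. All 5 C21 foragers (2.05 to 3.48 log2 CPM) and all 5 C26 foragers (3.21 to 4.32) were high, against 1 C23 bee, 1 C25 bee and none in C28 or C27. In nurses 3 C21 bees, 1 C28 bee and 4 C26 bees were high. The adjusted p was 7.01e-05 in foragers and 0.00793 in nurses (limma).

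Further called members had other layouts. GB42394 was low in all 5 C27 foragers (-3.75 to -3.08 log2 CPM) and in 1 other forager, with an adjusted p of 8.3e-06 (limma), while in nurses low bees occurred in C21, C28, C26 and C27 and the gene was not called. GB41597 was low in 4 of 5 C26 foragers and 2 of 5 C26 nurses and in no other bee, with adjusted p of 3.53e-05 and 0.0353 (limma). GB53760 was low in 3 C21 bees of each caste and, in foragers, in 2 C28 bees; it was called in nurses alone (adjusted p 0.00149, limma). GB43046 was low in all C21 foragers and in 4 C21 nurses, low in all C25 nurses, and high in all C26 foragers and nurses and all C27 nurses, and was called in nurses (adjusted p 0.00407, limma). GB50423 was high in all 5 C26 foragers (8.65 to 10.5 log2 CPM) and in no C26 nurse. In both castes it was also high in bees of C28, C21 and C27. The high C28 foragers lay between 9.17 and 11.4 log2 CPM and the high C28 nurses between 8.37 and 11.8. It was called over the 6 colonies in foragers (adjusted p 0.00168, limma), and between colonies of the same exposure in both castes. GB40982 was high in 3 C28, 1 C23 and 2 C26 foragers and in 4 C28 nurses and 1 C26 nurse, and had an adjusted p of 0.00534 between nurse colonies of the same exposure (limma). That call held in 9 of 14 alternatives, over which the adjusted p ranged from 0.00199 to 0.433.

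**Figure D4:**
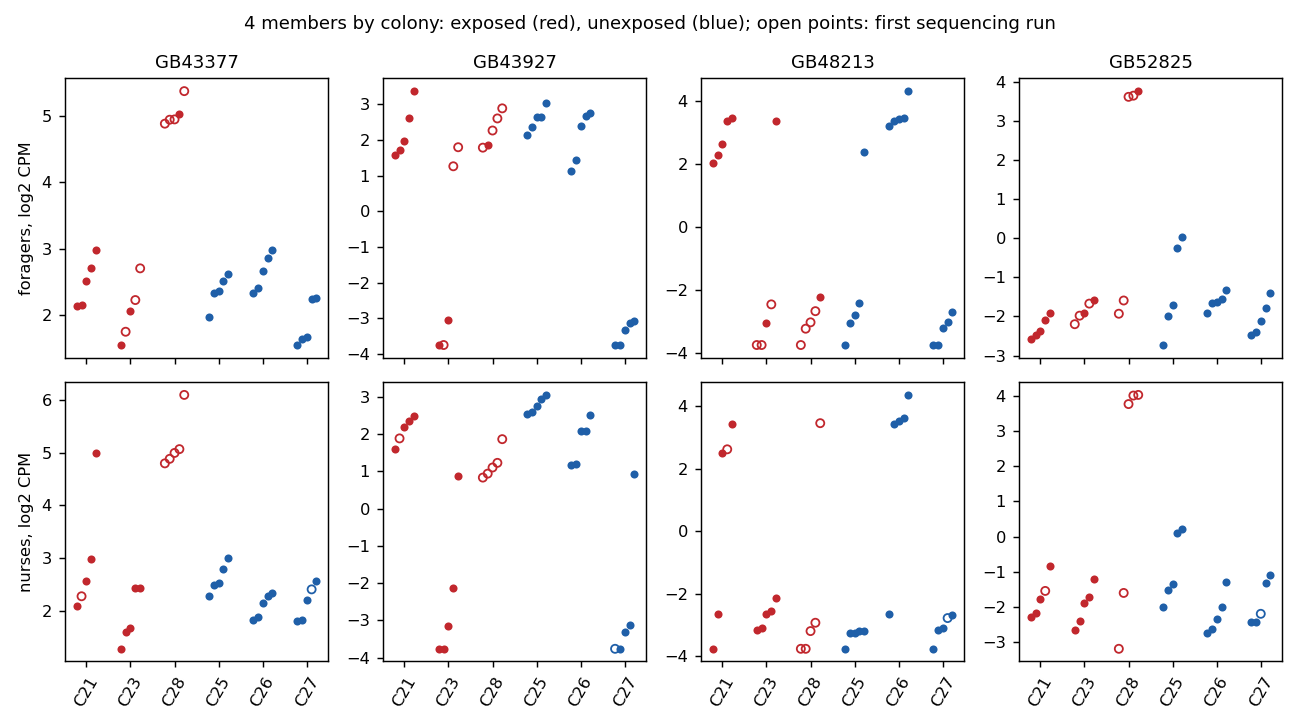
Log2 CPM (y axis) of GB43377, GB43927, GB48213 and GB52825 by colony (x axis), 1 point per bee, foragers above and nurses below, exposed colonies in red left of unexposed colonies in blue, with open points for bees of the first sequencing run. GB43377 is high in all 5 C28 foragers, open and filled points alike, and in all 5 C28 nurses, and GB52825 in 3 of 5 bees of C28 in each caste.

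A difference between castes in the colony pattern was called for none of the 60 members (limma, caste by colony interaction), against 11.4% of the 11151 genes tested. At an unadjusted p below 0.05 there were 3 members, against 33.3% of all genes, and limma-voom also called none. In the second run alone, without C28, GB41279 and GB50423 were called, 3.33% of the members against 13.3% of genes. Without colony C23 GB45797 was called, 1.67% of the members against 15.8% of genes. A missed threshold does not show that the colony patterns of the castes are the same, and 5 bees per colony and caste limit what this test can resolve.

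Exposed and unexposed bees held similar numbers of high states. Over the 60 members the 15 exposed foragers had 482 high states and the 15 unexposed foragers 463, and the 15 exposed nurses had 474 and the 15 unexposed nurses 462. More exposed than unexposed bees were high for 30 members in foragers and 27 in nurses, fewer for 22 and 23, and equally many for 8 and 10. The side was the same in both castes for 35 members, 20 with more exposed and 15 with more unexposed high bees, and opposite for 9.

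No member was called by exposure in foragers, against 0.00879% of genes (1 of 11381), or in nurses, against 0.0532% (6 of 11271), by limma at adjusted p below 0.05. More differentially expressed genes were reported in both apiary castes by the study's own test, on counts. These low shares are therefore those of limma on log2 CPM. At an unadjusted p below 0.05, 14 members (23.3%) were found in foragers against 9.51% of genes, and 8 members (13.3%) in nurses against 15.2% of genes, and limma-voom called none in either caste. Bees of a colony share its exposure, and on the means of the 6 colonies these counts were 6 of 60 members in foragers against 4.68% of genes and 9 of 60 in nurses against 3.62%. With colony as a random block they were 11 (18.3%) in foragers against 6.91% of genes and 3 (5.0%) in nurses against 3.02%, and without colony C27 the forager count was 6 of 60 against 9.34%. The median log2 difference, exposed minus unexposed, was 0.13 in foragers and -0.02 in nurses for the members and 0.00 in both for all genes. The difference in the exposure contrast between castes was called for no member and for 0% of the 11151 genes (limma), with 2 members and 14.2% of genes at an unadjusted p below 0.05.

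The exposure differences with the lowest p among members were not uniform over colonies. GB43998 had the lowest adjusted p in nurses and the next lowest in foragers. It lay at -0.21 ± 1.14 log2 CPM in exposed foragers against -2.16 ± 1.54 in unexposed foragers (SD, n = 15 each), and at -0.58 ± 1.1 in exposed nurses against -2.52 ± 1.71 in unexposed nurses. The log2 difference was 1.95 ± 0.48 (SE, adjusted p 0.134) in foragers and 1.94 ± 0.51 (adjusted p 0.108) in nurses by limma. High bees of GB43998 held between 9 and 51 reads in foragers and between 9 and 46 in nurses. Its low bees held at most 1 read, so the size of the difference depends on the constant added before the log. All bees of C21 and C28 were high and 4 of 5 bees of C23 in each caste, whereas of the unexposed colonies C26 had 4 high bees per caste, C27 had 1, and C25 had 2 foragers and no nurse. GB50205, with a log2 difference of 2.36 ± 0.55 in foragers (adjusted p 0.118) and 1.37 ± 0.51 in nurses (adjusted p 0.223), was high in 10 exposed against 2 unexposed foragers and in 6 exposed against 1 unexposed nurses. GB46276 was high in 6 exposed against 14 unexposed nurses, a log2 difference of -3.29 ± 0.97 (adjusted p 0.144), and in 9 exposed against 13 unexposed foragers. GB50205 and these differences were singled out after their values were seen. Without colony C23, limma called 4 members in foragers (GB50205, GB43998, GB53760 and GB43377), 6.67% of the members against 0.597% of genes, and GB43377 in nurses, 1.67% of the members against 1.39% of genes. Without colony C26 it called GB43998 in nurses, against 0.222% of genes.

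Some members were high in exposed bees alone, and these bees came from few colonies. GB52825 was high in 3 C28 foragers and 3 C28 nurses and in no other bee, with between 252 and 559 reads in high bees against at most 33 in low bees. It was called by colony in foragers (adjusted p 0.0474) and in nurses (adjusted p 0.0289) by limma, but its exposure difference was 0.77 ± 0.62 in foragers and 0.90 ± 0.66 in nurses (SE), with adjusted p of 0.692 and 0.527. GB40719 was high in 1 C23 and 2 C28 foragers and in 2 C23 and 2 C28 nurses, with at least 378 reads in high foragers, against at most 117 in low foragers, and at least 701 reads in high nurses, against at most 48 in low nurses. GB43377 was high in C28 and in 1 C21 nurse, as given above. GB54962 was high in 3 C23 foragers alone but in 4 exposed (C21, C23 and C28) and 2 unexposed (C25) nurses. Among foragers GB40899 was high in unexposed bees alone. Its high bees were 3 C26 foragers and 1 C21 and 2 C26 nurses, with between 82 and 200 reads. By limma its log2 difference was -0.97 ± 0.43 in foragers (adjusted p 0.496) and -0.35 ± 0.49 in nurses (adjusted p 0.772). The study's own test, on counts, lists GB40899 as differentially expressed in apiary foragers.

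Some members were high in the same bees. GB54962 and GB54963, which have consecutive identifiers, were high in the same 3 foragers and the same 6 nurses, and their levels had a Pearson r of 0.90 over foragers and 0.89 over nurses. GB49504, GB47270 and GB42556 had identical high and low bees, 27 of 30 foragers and 28 of 30 nurses high, with r between 0.85 and 0.97 for their pairs. The low foragers of this group were 1 bee each of C23, C28 and C26, and the low nurses 2 bees of C21. GB46236 and GB47546 shared 7 high foragers, with 1 more in GB47546, and both high nurses, with r of 0.94 and 0.92. GB50423 varied with this pair, with r of 0.81 and 0.87 in foragers and 0.82 and 0.91 in nurses. Its high bees included 6 of the 7 high foragers of GB46236 and both high nurses. These 7 pairs were the only ones of 1770 with an absolute r of at least 0.7 in both castes, and the median r over all pairs was 0.00 in foragers and 0.02 in nurses. Correlations here are across the 30 bees of a caste and are a description.

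Neighbouring identifiers did not always share their bees. GB41278 and GB41279 were both high in 11 foragers and in 20 nurses, but their levels had an r of -0.59 in foragers and -0.26 in nurses. GB45309 and GB45310 had an r of 0.07 and -0.08. By overlap of high bees alone, GB43036, GB41278 and GB53760 fell with 10 further members into a single group of 13, in which most bees are high for every gene, so that overlap there says little. The match on high and low bees was therefore added after the values were seen.

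The number of members that were high in a bee lay in a limited range. A forager had between 24 and 37 of the 60 members high, with a median of 32, and a nurse between 23 and 38, with a median of 31.5. The medians of the colonies ran between 29 and 35 in foragers and between 27 and 36 in nurses, and C28 was highest in both castes, with 35 and 36. The number of high members had a Pearson r of 0.03 with the reads of the library in foragers and 0.33 in nurses (30 bees each, as a description).

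The field pools, which took no part in the choice, gave a measure of spread from other bees. Of the 60 members, 58 were in the table of field foragers and 53 in that of field nurses. Their SD over pools had a median of 1.26 log2 CPM in foragers and 1.24 in nurses, against 0.21 and 0.20 over all genes. A range of 2 or more between the lowest and the highest pool was found in 47 of 58 members against 5.94% of the 10976 genes in foragers, and in 36 of 53 members against 6.84% of the 10852 genes in nurses. In the top 10% of genes by SD were 50 and 42 members. The members had fewer reads than most genes, and they were not compared with genes of equal level.

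**Figure D5:**
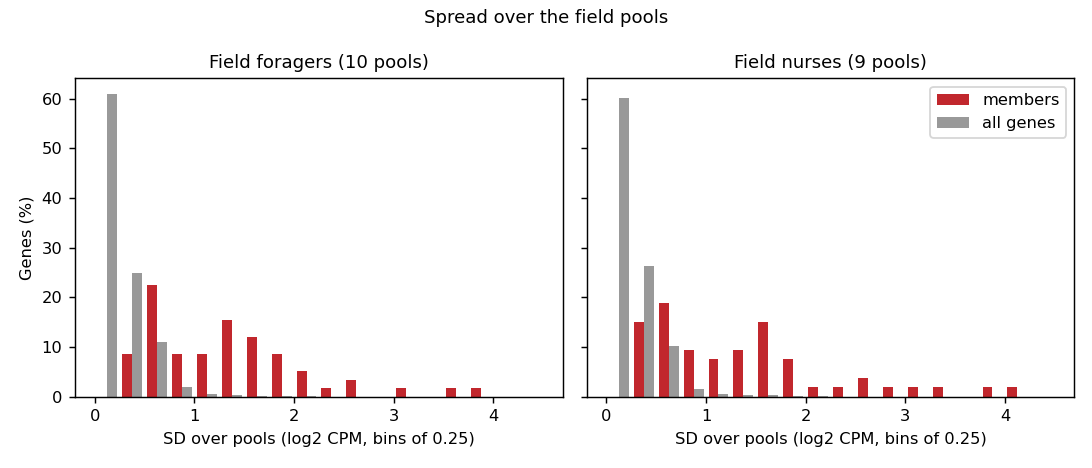
Share of genes (y axis, %) by SD of log2 CPM over the field pools (x axis, bins of 0.25) for members (red) and all genes (grey), in 10 forager pools (left) and 9 nurse pools (right). Most genes lie below 0.5, while the members are spread to 3.95 in foragers and 4.11 in nurses.

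GB49219 had the largest SD of the members over forager pools, 3.95 log2 CPM. It held 812, 10, 3, 2 and 1 reads in the exposed forager pools, against 4466, 624, 502, 4 and 2 in the unexposed forager pools, and 1201, 6, 5, 3 and 2 reads in the exposed nurse pools, against 725, 687, 647 and 8 in the unexposed nurse pools. One exposed pool of each caste, 3 of 5 unexposed forager pools and 3 of 4 unexposed nurse pools were thus far above the rest, and the exposures overlapped. In a pool of 5 brains, fewer high bees and fewer reads per high bee cannot be told apart. GB45797 had the largest SD over nurse pools, 4.11 log2 CPM, with between 23 and 38745 reads in exposed nurse pools, against between 50 and 8457 in unexposed nurse pools, and between 37 and 7856 reads in exposed forager pools, against between 19 and 20680 in unexposed forager pools. The exposures overlapped again in both castes.

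Pool values of GB43377 and GB52825, which were called by colony in the apiary, and of GB49854, which was not, are given next. GB43377 lay between 2.86 and 3.35 log2 CPM in exposed forager pools, against 3.16 to 4.16 in unexposed forager pools, a log2 difference of -0.68 ± 0.19 (SE, adjusted p 0.108, limma). In nurse pools it lay between 2.15 and 3.49 in exposed pools, against 1.81 to 3.70 in unexposed pools. GB52825 was at 117 reads in an exposed forager pool and between 1 and 23 in the 4 other exposed forager pools, against 4 to 22 in unexposed forager pools. GB49854 lay between 1.45 and 3.16 log2 CPM in exposed nurse pools, against 3.58 to 8.94 in unexposed nurse pools, without overlap, a log2 difference of -4.25 ± 1.07 (SE, adjusted p 0.658, limma), and between 7.27 and 8.02 in exposed forager pools, against 7.75 to 9.76 in unexposed forager pools.

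No member was called by exposure in the field (limma), among 58 tested in foragers and 53 in nurses, and 0% of all genes were called in either table. At an unadjusted p below 0.05 there were 8 members (13.8%) in foragers, against 24.2% of genes, and 4 (7.55%) in nurses, against 4.18% of genes, and limma-voom called none. The forager result rests on 1 library: without the exposed pool 2J1, 4 members (GB46428, GB52581, GB43377 and GB54870) and 26.6% of genes were called. The study's own test, on counts, reported differentially expressed genes in both field castes. GB49854 is in its list for field nurses, unlike the limma result given here. Exposed and unexposed pools came from 1 site each, so exposure and site cannot be told apart.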

How the data were processed

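Brain RNA of 60 single apiary bees and 19 field pools was sequenced by the authors. Per the methods and processing notes, reads were trimmed with Trimmomatic 0.36, aligned with STAR to the Amel 4.5 assembly and counted per gene. Genes with low counts were removed, and the authors used edgeR in R 3.6.3 to make the deposited log2 CPM, 1 table per study and caste, with TMM scaling. The deposited log2 values, once the log was undone, rose in equal steps above a floor, so reads per gene were worked back: 100% of values below 20000 reads lay within 0.1 of a whole number. In foragers 3 unexposed columns (of C25 and C27) could be matched to group and colony but not to 1 title.

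All 60 members and all lists were chosen with earlier results of these data known. Tests were two-sided limma 3.58.1 (R 4.3.3) with a trend of variance on mean, fitted to log2 CPM as deposited, with Benjamini-Hochberg adjustment over all genes of a table and calls at 0.05. Because log2 CPM and not counts were deposited, limma took the place of the study's count test. That count test was not run on the reads worked back, which served for limma-voom. The scripts were tested on simulated data. Alternatives were log2(CPM + 1), a mean of at least 1 CPM, equal library medians, limma-voom, the run as a term, colony as a block, colony means, leaving out each colony or pool and, added after the data were seen, rank scores, the second run alone and leaving out nurse C21-N3 or C23-N1, of which C23-N1 had the fewest reads. Members were named by a rule: the 15 largest gaps, up to 6 calls per test, members with a name, members confined to 1 or 2 colonies, members with matching bees, those at the border, and the largest field SD. P-values measure spread between the bees sampled, which share colonies.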

Additional observations from a re-analysis of the deposited data

Results flagged for a closer look

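In the field pools, 18 groups of 4 or 5 values were examined for a pool far from the others. The values were reads per library and the levels of GB49219, GB45797, GB43377 and GB52825. For normally distributed values not chosen by their spread, chance gives such a pool in about 1 group in 20. GB49219 and GB45797 were taken for their SD over these same pools, so that rate does not hold for them. There were 3 such pools. GB49219 stood at 5.56 log2 CPM in the exposed nurse pool 2J2, above the 4 other exposed nurse pools, and at -1.45 in the unexposed nurse pool 2J6, below the 3 other unexposed nurse pools. GB45797 stood at -0.36 log2 CPM in the exposed nurse pool 2J5, below the 4 other exposed nurse pools. Groups of 15 apiary bees were not examined in this way.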

How the results depend on the processing

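The choice of members depended on the scale: with log2(CPM + 1), 48 genes passed the gap rule and 37 of them were among the 60, against 53 shared members with 3 or more bees on each side, 48 in the second run alone, 60 without nurse C21-N3 and 59 without nurse C23-N1. Members called by colony in foragers fell to 9 with the run as a term (1.1% of genes) and 0 with rank scores (0% of genes), and within exposures to 0 with rank scores. In nurses they were 13 (limma-voom, 44.2% of genes), 13 (run as a term, 23.6%) and 14 (second run alone, 26.4%), and within exposures 13 (44.2%), 14 (25.1%) and 15 (28.6%). The caste difference of the colony pattern gave 2 members in the second run alone (13.3% of genes). With 1 colony or the nurse C21-N3 or C23-N1 left out, the counts of members lay in these ranges, with the range of the shares of all genes in brackets. The ends of the ranges in a pair need not come from the same setting. By exposure they were 0 to 4 in foragers (0% to 0.597%) and 0 to 1 in nurses (0% to 1.39%). By colony they were 9 to 15 in foragers (0.597% to 1.6%) and 10 to 24 in nurses (12.9% to 39.2%). Within exposures they were 8 to 12 in foragers (0.439% to 1.18%) and 8 to 24 in nurses (7.98% to 38.3%). For the caste difference of the colony pattern they were 0 to 1 (1.34% to 15.8%). Leaving out 1 pool gave 0 to 4 members in field foragers (0% to 26.6% of genes) and 0 in field nurses (0% of genes). In each test at most the 6 member calls with the smallest adjusted p were followed, 24 calls in all, with some members counted in more than 1 test. For these 24 calls, 301 of 334 alternatives kept the call and 33 lost it. Weaker calls of members were not followed in this way. The causes were not tested, and 5 bees per colony and caste limit every colony test. Castes share colonies, and with colony as a random block no member was called by exposure in either caste or for the caste difference of the exposure contrast. In the field no comparison was made between castes.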
